A study of Mus musculus with 6 samples.

Results

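The genes for ionotropic and metabotropic glutamate receptors and for the scaffold proteins of the postsynaptic density were examined in the MeA *Kiss1* RNA-seq data, as 38 genes taken by symbol from these gene families. All 38 were among the 13886 genes of the table. They comprise AMPA receptor subunits (*Gria1* to *Gria4*), kainate receptor subunits (*Grik1* to *Grik5*), NMDA receptor subunits (*Grin1*, *Grin2a* to *Grin2d* and *Grin3a*), the delta receptor gene *Grid1*, the metabotropic receptor genes *Grm2*, *Grm3*, *Grm4*, *Grm5*, *Grm7* and *Grm8*, the kainate receptor partners *Neto1* and *Neto2*, and the scaffold families Dlg, Dlgap, Shank and Homer.

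The RNA came from ribosomes carrying an HA tag in female Kiss1Cre+/Rpl22HA+/+ mice, in which Cre driven from *Kiss1* recombines the ribosomal gene *Rpl22*. The tag therefore marks every cell in which Cre has acted, whether or not that cell still makes *Kiss1*. Ovariectomy took place at the age of 8 weeks in every mouse and was followed by 4 days with an E2 capsule and 7 days without one. The OVX group stayed without a capsule and the E2 group received an E2 capsule for 5 days, so ovariectomy and the first E2 exposure were common to both groups. Bilateral micropunches of the medial amygdala (MeA) from 4 mice were pooled for each immunoprecipitated (IP) library, and there were 3 libraries per group. The spread between libraries is thus a spread between pools and not between single mice. No unprecipitated Input library was analysed here.

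Glutamate released at an excitatory synapse opens AMPA, kainate and NMDA receptors, which are assemblies of 4 subunits. AMPA receptors carry most of the fast current, NMDA receptors pass calcium when glutamate coincides with depolarization, and kainate receptors act on both sides of the synapse. Metabotropic receptors signal through G proteins, with *Grm5* coupled to phospholipase C and the others listed here inhibiting adenylyl cyclase. Beneath the membrane, Dlg proteins such as PSD-95 (*Dlg4*) bind receptor tails, Dlgap proteins join Dlg to Shank, and Shank and Homer tie the complex to actin and to *Grm5* receptors. The MeA receives strong glutamatergic input, from the olfactory system among other sources, and is made up largely of GABA neurons with some glutamate neurons.

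The scaled library sizes lay between 28.1M and 34.2M, and the members made up 0.746% to 0.829% of the CPM of a library. *Kiss1*, in the higher of its 2 gene models, rose by 1.91 on the log2 CPM scale with E2 (adjusted p = 0.00475, limma), and *Esr1*, the estrogen receptor gene, decreased by 0.70 (adjusted p = 0.0189). The 5 pan-neuronal markers were present in every library, at a mean log2 CPM of 9.35 to 9.47. Markers of astrocytes, oligodendrocytes, microglia and vessel cells were listed too, none at 0, and the oligodendrocyte mean of 6.75 to 7.32 was close to the 6.88 to 7.38 of the 3 GABA neuron markers, so the IP RNA was not free of RNA from other cell types. In such bulk RNA, fewer cells of a type and less RNA per cell cannot be told apart.

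To compare levels between genes, the log2 CPM was taken per kilobase of the longest protein-coding transcript (GENCODE release 21, GRCm38). On this scale the members spanned 5.89 log2 units, or 59.2-fold, from *Homer3* at 1.22 to *Dlg4* at 7.11 (means of 6 libraries). The median SD of a member over the 6 libraries was 0.119, and genes of 1 family lay far apart, as *Grin1* (7.08) and *Grin2d* (2.28) among the NMDA subunits did. Of the 37 pairs of neighbours in this order, 16 kept their sign in 6 of 6 libraries, and the other 21 were not separated beyond the spread between libraries.

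**Figure D1:**
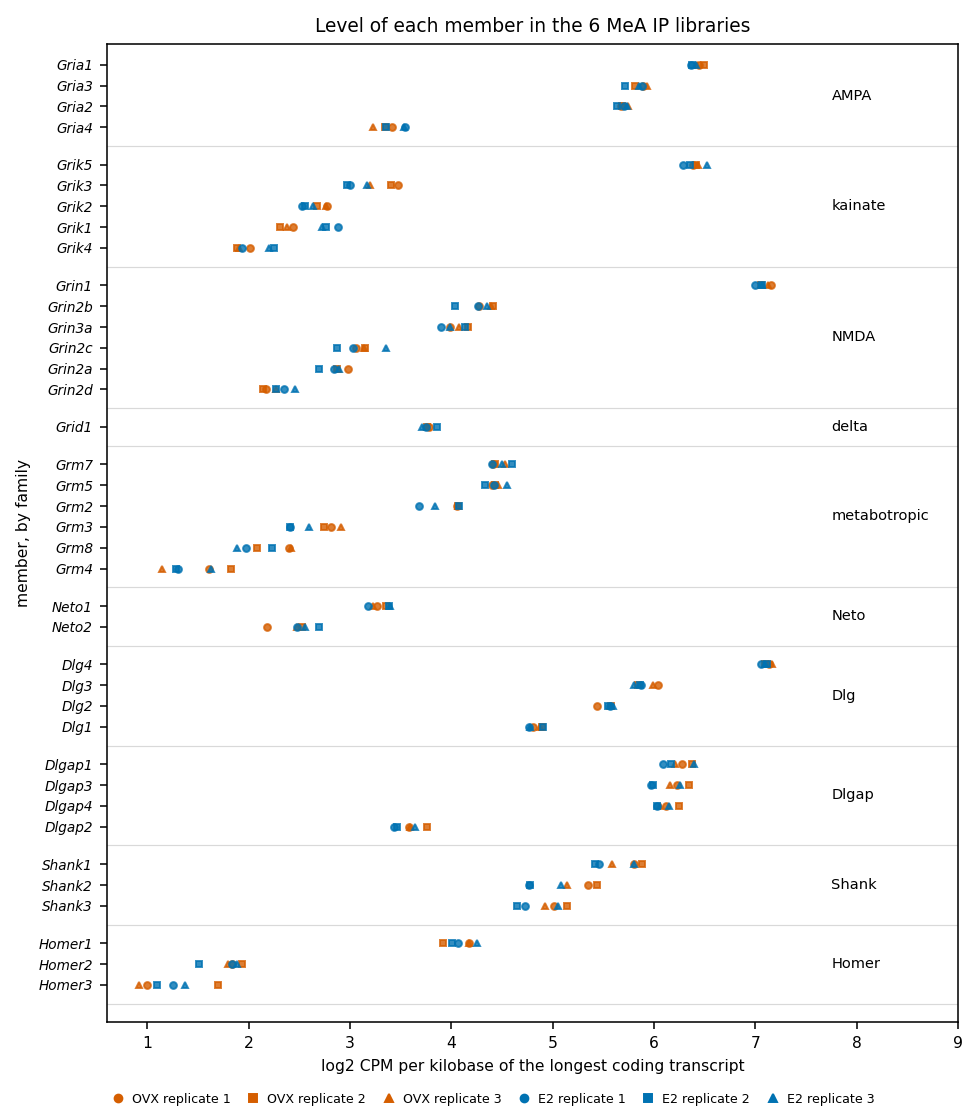
Log2 CPM per kilobase of the longest coding transcript for each of the 38 members, grouped by family, with 1 point for each of the 6 libraries (orange, OVX; blue, E2; symbol, replicate number). The families span from 1.22 for *Homer3* to 7.11 for *Dlg4*, and the libraries of the 2 groups lie close together for most genes.

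Among the AMPA receptor subunits, *Gria1* had the highest level. Its log2 CPM per kilobase was 6.44, 6.49 and 6.42 in OVX replicates 1 to 3 and 6.37, 6.37 and 6.42 in E2 replicates 1 to 3. *Gria3* (5.85) and *Gria2* (5.69) followed, and *Gria4* stood apart at 3.40, with the same order in 6 of 6 libraries. *Gria2* encodes the subunit that, when its transcript is edited, keeps AMPA receptors from passing calcium. As a share of the summed CPM per kilobase of the 4 genes, *Gria1* made up 41.6%, *Gria3* 28.0%, *Gria2* 25.2% and *Gria4* 5.16%. With the median transcript length the largest share passed to *Gria3*, at 37.4% against 31.8% for *Gria1*, so the order of these 2 depended on the length used, while *Gria4* stayed the lowest of the family (3.94% with that length).

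The kainate subunits were dominated by *Grik5*, which encodes a subunit that forms channels only together with those of *Grik1* to *Grik3*. Its log2 CPM per kilobase was 6.39, 6.41 and 6.43 in OVX and 6.28, 6.35 and 6.52 in E2 libraries, and its share of the family was 76.6% with the longest, 66.6% with the median transcript and 74.4% with all exonic bases. With the longest transcript, *Grik3* (3.20), *Grik2* (2.65), *Grik1* (2.58) and *Grik4* (2.03) lay more than 3 log2 units below it on average. On that scale *Grik2* and *Grik1* were not separated, with *Grik2* higher in 3 of 6 libraries, namely the 3 OVX libraries. With the median transcript *Grik2* came next to *Grik5*, at 16.5% of the family against 7.32% for *Grik3* and 5.45% for *Grik1*. The order below *Grik5* thus depended on the length used. *Neto1* and *Neto2*, whose proteins slow the gating of kainate receptors, had 3.30 and 2.49. *Neto1* was the higher in each library, with 3.27, 3.36 and 3.22 in OVX and 3.18, 3.38 and 3.40 in E2.

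*Grin1*, the subunit that every NMDA receptor holds, had a log2 CPM per kilobase of 7.16, 7.05 and 7.13 in OVX and 6.99, 7.07 and 7.06 in E2 libraries, the second highest of the 38. With all exonic bases or the median transcript it ranked 5. Of its exonic bases, 13.5% are shared with an antisense gene, and the unstranded libraries do not tell the strands apart. *Grin2b* (4.29) and *Grin3a* (4.04) were not separated, with *Grin2b* higher in 5 of 6 libraries, and *Grin2c* (3.10), *Grin2a* (2.86) and *Grin2d* (2.28) followed. *Grin2b* and *Grin2a* encode the glutamate-binding subunits of most forebrain NMDA receptors. *Grin2b* was the member whose place depended most on length, since its longest transcript has 24.06 kb. It ranked 18 of 38 with that length, 15 with all exonic bases, 2 with the median transcript and 7 with no length correction, and its share of the NMDA family was 10.2%, 17.7% and 60.3% with the first 3 of these. *Grin2b* was higher than *Grin2a* under all 3 lengths.

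**Figure D2:**
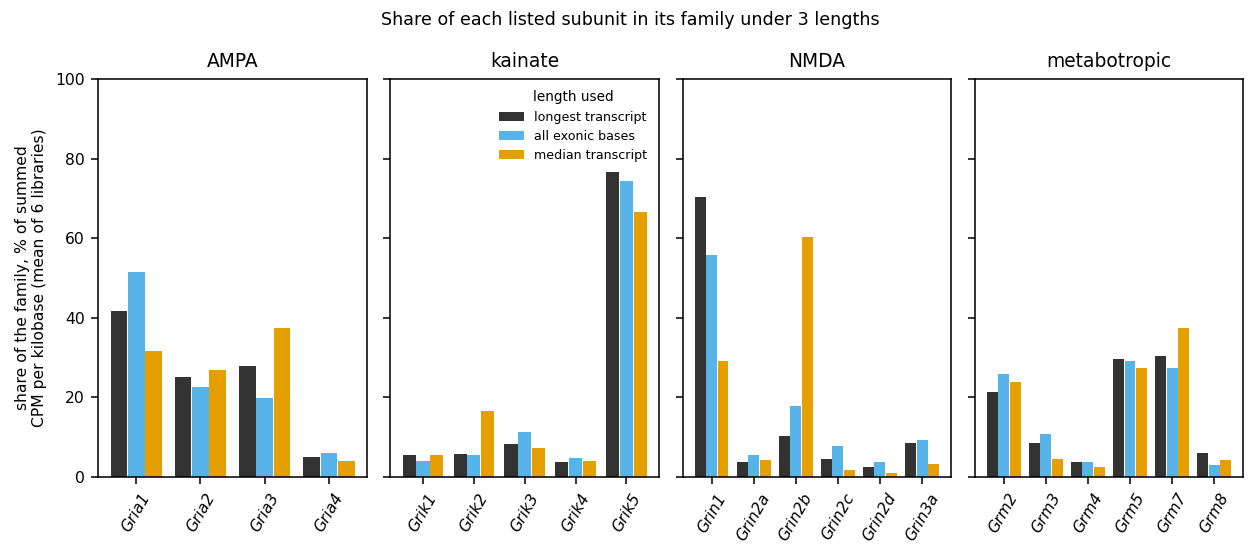
Share of each listed subunit in the summed CPM per kilobase of its receptor family (percent, mean of 6 libraries), computed with the longest transcript (black), all exonic bases (blue) or the median transcript (orange). *Grik5* holds 66.6% to 76.6% of the kainate family under the 3 lengths, while the share of *Grin2b* moves from 10.2% to 60.3%.

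The metabotropic receptor genes had lower levels than the leading channel subunits. *Grm7*, a presynaptic receptor, had 4.41, 4.43 and 4.53 in OVX and 4.40, 4.60 and 4.50 in E2 libraries on the log2 CPM per kilobase scale, and *Grm5*, a postsynaptic receptor, was not separated from it at a mean of 4.43. *Grm2* (3.96), *Grm3* (2.64), *Grm8* (2.16) and *Grm4* (1.47) followed in the same order in 6 of 6 libraries. *Grm4* was 1 of the 2 lowest members, at 1.61, 1.82 and 1.14 in OVX and 1.31, 1.28 and 1.63 in E2 libraries. With all exonic bases *Grm8* was instead the lowest of the 38 and *Grm4* ranked 36. Their shares of the metabotropic family were then 3.02% for *Grm8* and 3.71% for *Grm4*. The delta receptor *Grid1*, which binds cerebellins across the synapse, was among the steadiest, with 3.78, 3.76 and 3.76 in OVX and 3.75, 3.86 and 3.71 in E2 libraries.

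Scaffold genes took many of the highest places. *Dlg4* led all members with 7.13, 7.09 and 7.17 in OVX and 7.06, 7.12 and 7.10 in E2 libraries, and it was not separated from *Grin1*, being the higher in 5 of 6. *Dlg3* (5.90), *Dlg2* (5.55) and *Dlg1* (4.84) followed in every library, although *Dlg2* stood above *Dlg3* with the median transcript. The share of *Dlg4* in the Dlg family was 50.5% with the longest transcript, 42.4% with all exonic bases and 84.1% with the median transcript. Among all members *Dlg4* ranked 1 with the longest and the median transcript, and 3 with all exonic bases, behind *Gria1* and *Dlgap3*. With the longest transcript, *Dlgap1*, *Dlgap3* and *Dlgap4* lay within 0.15 of each other, at means of 6.25, 6.16 and 6.10. *Dlgap1* had 6.27, 6.38 and 6.21 in OVX and 6.09, 6.16 and 6.39 in E2 libraries, while *Dlgap2* was at 3.58. The closeness and the order of *Dlgap1*, *Dlgap3* and *Dlgap4* depended on the length used. With the median transcript *Dlgap4* made up 47.2% of the Dlgap family and *Dlgap3* 16.5%. With all exonic bases *Dlgap3* made up 45.8% and *Dlgap4* 27.2%. *Dlgap2* was the lowest of the family under each length. *Shank1* had 5.80, 5.88 and 5.58 in OVX and 5.46, 5.42 and 5.81 in E2 libraries, above *Shank2* (5.09) and *Shank3* (4.92) in each library. Of the Homer genes, *Homer1* had 4.17, 3.92 and 4.17 in OVX and 4.06, 4.01 and 4.25 in E2 libraries, *Homer2* had 1.80 and *Homer3* was the lowest member, at 0.99, 1.70 and 0.92 in OVX and 1.26, 1.09 and 1.37 in E2 libraries. *Homer3* also varied most, and 25.4% of its exonic bases are shared with the gene *Ddx49*. With all exonic bases *Homer3* ranked 37 of the 38.

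E2-treated and OVX libraries were then compared to ask whether transcripts of these receptors and scaffolds differed with E2. None of the 38 members passed the threshold (adjusted p under 0.05, limma over all genes), as against 40 of 13886 genes, or 0.288% (0.23% higher and 0.0576% lower with E2). Refitted with voom weights on rebuilt counts, the count of members was also 0. At an unadjusted p under 0.05 there were 8 members in both fits, 1 higher and 7 lower with E2, that is 21.1% of the members against 8.56% of all genes (4.21% higher and 4.34% lower). For 6 members the 3 libraries of one group did not overlap those of the other, 1 higher and 5 lower, a share of 15.8%, which is close to the 13.7% of all genes (6.85% higher and 6.82% lower). In all, 26 of 38 members (68.4%) had a difference below 0, as did 48.9% of all genes, and the median difference was -0.07 on the log2 CPM scale against 0.003. The differences were small, from -0.43 to 0.42, and with a median SE of 0.076 the median 95% interval reached 0.164 to either side.

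The members are long genes, and long genes as a whole leaned the same way. Of the 3459 genes with the longest transcripts, which included 27 of the 38 members, 54.2% had a difference below 0, against 44.2% of the 3460 with the shortest. The median difference of these 3459 genes was -0.0124 on the log2 CPM scale, a smaller one than the -0.0687 of the members. Of the 3457 genes with the highest GC content, which included 12 members, 56.6% were below 0, and of the 3457 with the lowest, which also included 12, 38.4% were. Within the members, 15 of the 19 with the higher GC content and 11 of the 19 with the lower had a difference below 0. The part of length or GC content in the members' differences was not tested.

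**Figure D3:**
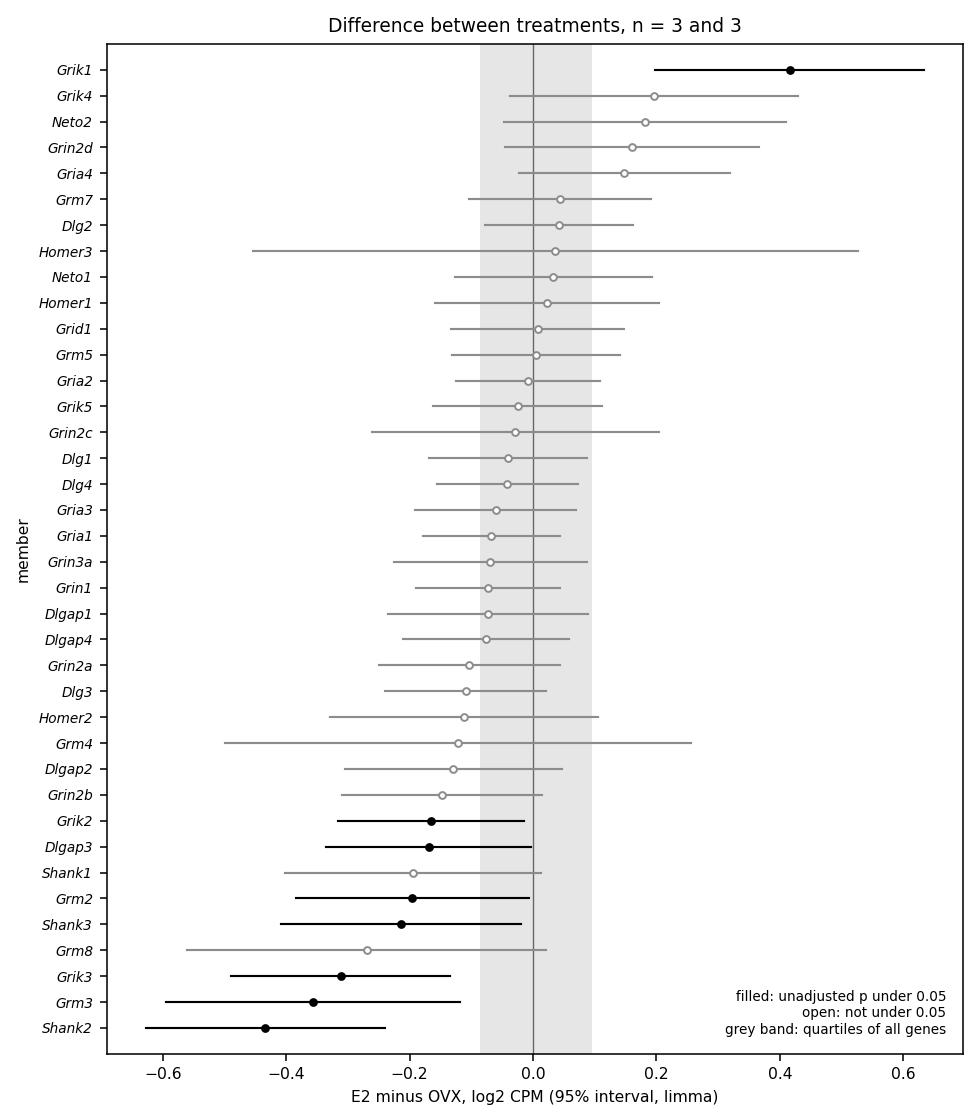
Difference between treatments (E2 minus OVX, log2 CPM) for the 38 members, with the 95% interval from limma (3 against 3 libraries). Filled points have an unadjusted p under 0.05 and the grey band runs from the lower to the upper quartile of all genes. The points run from -0.43 for *Shank2* to 0.42 for *Grik1*, and 26 of 38 lie below 0.

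The member with the lowest adjusted p was *Shank2* (ENSMUSG00000037541, GRCm38 chromosome 7 from 144001928 to 144424494, plus strand), which encodes a scaffold that links Dlgap proteins to Homer and actin. Its log2 CPM was 8.52, 8.60 and 8.31 in OVX and 7.93, 7.94 and 8.25 in E2 libraries. The groups did not overlap, although OVX replicate 3 and E2 replicate 3 lay only 0.05 apart. The difference was -0.43 (SE 0.09, 95% interval -0.63 to -0.24), with an adjusted p of 0.0786 in limma. It passed the threshold without OVX replicate 3 (-0.52, adjusted p = 0.0388) and without E2 replicate 3 (-0.54, adjusted p = 0.00894), and in no other refit.

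*Shank3*, the Shank gene best known from autism genetics, had a log2 CPM of 7.89, 8.02 and 7.81 in OVX and 7.61, 7.53 and 7.93 in E2 libraries. Its groups overlapped through E2 replicate 3, and the difference was -0.21 (SE 0.09, adjusted p = 0.532). It was -0.13 without E2 replicate 2 and -0.34 without E2 replicate 3 (adjusted p = 0.0647). *Shank1* had a difference of -0.19 (SE 0.10, adjusted p = 0.607), also with overlap. The summed CPM per kilobase of the 3 genes was 114 to 137 in OVX and 95.2 to 123 in E2 libraries, a ratio of the group means of 0.832, the lowest of the 10 families. Within this sum the share of *Shank2* was 31.4% ± 0.35 in OVX and 28.0% ± 0.62 in E2 libraries (SD, n = 3).

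All 4 Dlgap genes had differences below 0, at -0.17 for *Dlgap3*, -0.13 for *Dlgap2*, -0.08 for *Dlgap4* and -0.07 for *Dlgap1*. *Dlgap3*, whose protein is abundant in the striatum, had 8.30, 8.42 and 8.23 in OVX and 8.04, 8.06 and 8.33 in E2 libraries on the log2 CPM scale. E2 replicate 3 lay among the OVX libraries, and the difference was -0.17 (SE 0.08, adjusted p = 0.572), or -0.26 without that library (adjusted p = 0.139). The Dlg genes stood between -0.11 for *Dlg3* and 0.04 for *Dlg2*, and the Homer genes between -0.11 and 0.04, with 0 of these 7 at an unadjusted p under 0.05. For *Dlg4* the difference was -0.04, with a 95% interval from -0.16 to 0.07.

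The Dlgap and Shank genes varied together from library to library. In OVX replicate 2 and in E2 replicate 3, 7 of these 7 genes lay above their own group mean, and in OVX replicate 3 and in E2 replicates 1 and 2, 0 of 7 did. Their median deviation was 0.11 in OVX replicate 2 and 0.19 in E2 replicate 3 on the log2 CPM scale, and -0.01, -0.09, -0.10 and -0.08 in OVX replicates 1 and 3 and E2 replicates 1 and 2. The 4 Dlg genes, whose proteins bind Dlgap, did not do so, with 2, 2 and 4 of 4 above the mean in OVX replicates 1 to 3 and 1, 3 and 2 of 4 in E2 replicates 1 to 3. These sets were put together after the values were seen. Among the other members, *Gria1*, *Grik3* and *Grm4* also lay above their group mean in OVX replicate 2 and E2 replicate 3. All of them lay below it in OVX replicate 3 and E2 replicates 1 and 2, so the pattern was not particular to Dlgap and Shank. The 3459 genes with the longest transcripts were also highest in OVX replicate 2 (0.04) and E2 replicate 3 (0.02), as median log2 CPM minus the gene's mean. E2 replicate 3 was the library in which most members lay above their group mean, 30 of 38. This count was not made over all genes. The median log2 CPM minus the gene's mean over 6 libraries was 0.0529 for the members in that library. For the 13834 genes with a transcript length it was 0.0025. In the fit without E2 replicate 3, 78.9% of members had a difference below 0, against 48.4% of all genes. In that refit 11 of 38 members and 1229 of 13886 genes had an unadjusted p under 0.05.

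**Figure D4:**
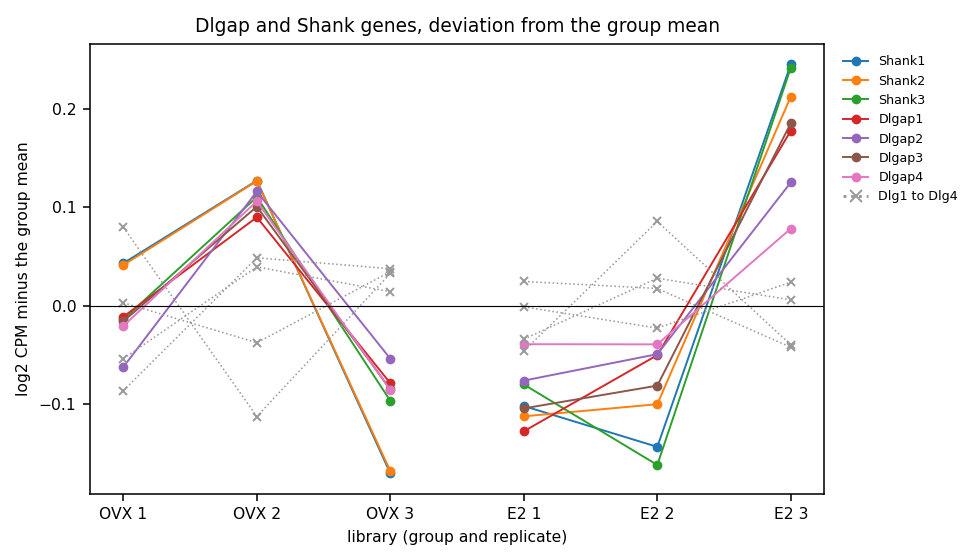
Deviation of each Dlgap and Shank gene from the mean of its treatment group (log2 CPM) in the 6 libraries, with the 4 Dlg genes as grey crosses. Lines join the values of 1 gene and imply no order of the libraries. The 7 coloured genes lie together above 0 in OVX replicate 2 and E2 replicate 3 and together below 0 in OVX replicate 3 and E2 replicates 1 and 2.

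The kainate subunits included the single member that was higher with E2 without overlap. *Grik1* (ENSMUSG00000022935, chromosome 16 from 87895900 to 88290265, minus strand), which encodes the GluK1 subunit, had a log2 CPM of 4.30, 4.18 and 4.25 in OVX and 4.75, 4.64 and 4.59 in E2 libraries. The lowest E2 library was 0.29 above the highest OVX library. The difference was 0.42 (SE 0.10, 95% interval 0.20 to 0.63) and the adjusted p in limma 0.148. Of the marker lists, 2 also had higher values with E2 in each of their genes. The 3 oligodendrocyte precursor markers had mean log2 CPM of 5.13, 5.22 and 4.95 in OVX and 5.61, 5.21 and 5.53 in E2 libraries, 3 of 3 higher, all at an unadjusted p under 0.05 and 0 past the threshold. The 3 GABA neuron markers had 6.88, 7.14 and 7.09 in OVX and 7.38, 7.19 and 7.10 in E2 libraries, 3 of 3 higher, 1 of them at an unadjusted p under 0.05. Their part in the *Grik1* difference was not tested.

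*Grik3*, which encodes GluK3, had 6.64, 6.57 and 6.36 in OVX and 6.17, 6.14 and 6.34 in E2 libraries. As with *Shank2*, both groups came close in replicate 3, and the difference was -0.31 (SE 0.08, adjusted p = 0.213). *Grik2*, which encodes GluK2, had 6.007, 5.910 and 6.004 in OVX and 5.760, 5.789 and 5.876 in E2 libraries, a difference of -0.17 (SE 0.07, adjusted p = 0.533) without overlap. *Grik4* and *Grik5* overlapped, with differences of 0.20 (adjusted p = 0.680) and -0.02 (adjusted p = 0.960). As shares of the family's summed CPM per kilobase, *Grik1* stood at 4.67% ± 0.19 in OVX and 6.37% ± 0.81 in E2 libraries, and *Grik3* at 9.27% ± 0.93 and 7.57% ± 0.22 (SD, n = 3).

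The log2 difference of 2 members within a library does not depend on how that library was scaled, and 9 such balances were compared between treatments. *Grik1* minus *Grik2* was -1.70, -1.73 and -1.76 in OVX and -1.01, -1.15 and -1.28 in E2 libraries. It was thus higher in each E2 library than in any OVX library, by 0.58 between group means (exact permutation test, two-sided, p = 0.1, the smallest p that 3 against 3 libraries allow, adjusted p = 0.9 over the 9 balances). This design cannot reach 0.05. The other 8 balances overlapped between groups, among them *Grin2a* minus *Grin2b*, with a difference of 0.04 (exact p = 0.6), *Gria1* minus *Gria2* (-0.06, exact p = 0.3) and *Gria4* minus *Gria2* (0.16, exact p = 0.2). The NMDA subunit balance, which shifts from *Grin2b* to *Grin2a* as many forebrain synapses mature, was -2.01, -2.26 and -2.23 in OVX and -2.13, -2.06 and -2.17 in E2 libraries.

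Of the AMPA subunits, *Gria1* had 8.92, 8.96 and 8.90 in OVX and 8.84, 8.84 and 8.89 in E2 libraries on the log2 CPM scale. The groups did not overlap but touched within 0.01, and the difference was only -0.07 (SE 0.05, adjusted p = 0.790). *Gria2*, *Gria3* and *Gria4* overlapped, with differences of -0.01, -0.06 and 0.15. For *Gria2* the 95% interval was -0.12 to 0.11. The 6 NMDA subunits all overlapped between groups, with differences from -0.15 for *Grin2b* and -0.10 for *Grin2a* through -0.07 for *Grin3a* and -0.03 for *Grin2c* to 0.16 for *Grin2d*, and 0 of 6 had an unadjusted p under 0.05. For *Grin1* the difference was -0.07, with a 95% interval from -0.19 to 0.04.

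Among the metabotropic receptors, *Grm3* and *Grm2*, the pair that forms group II and restrains glutamate release, had lower values with E2. *Grm3* (ENSMUSG00000003974, chromosome 5 from 9485541 to 9725170, minus strand) had a log2 CPM of 4.42, 4.36 and 4.52 in OVX and 4.01, 4.01 and 4.20 in E2 libraries. The groups did not overlap, and the difference was -0.36 (SE 0.11, adjusted p = 0.321). *Grm2* had 6.29, 6.30 and 6.30 in OVX and 5.91, 6.31 and 6.08 in E2 libraries, with E2 replicate 2 at the OVX level, and its difference was -0.20 (SE 0.09, adjusted p = 0.563). It was -0.10 without E2 replicate 1 and -0.30 without E2 replicate 2, with adjusted p of 0.960 and 0.323. *Grm3* is also expressed by astrocytes, whose 8 markers, all listed, had mean log2 CPM of 6.44 to 6.79 in OVX and 6.54 to 6.86 in E2 libraries, with 7 of 8 higher with E2. *Grm8* had a difference of -0.27 (SE 0.14, adjusted p = 0.616), and *Grm4*, *Grm5* and *Grm7* lay between -0.12 and 0.04. *Grid1* (0.01), *Neto1* (0.03) and *Neto2* (0.18) overlapped between groups.

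Promoter sequences from RefSeq (GRCm38.p6, 250 bases before to 50 after a transcription start) were matched to 25 of the 38 members, with 40 promoters. Those of *Grik2*, *Grik3* and *Grm3* are shown because they were the members without overlap between groups that had an entry. *Shank2*, *Grik1* and *Gria1* had none. All are written along the strand of the gene, at chr10:49788705-49789004 (minus), chr4:125490446-125490745 (plus) and chr5:9725303-9725602 (minus). Capitals mark the core element of estrogen receptor binding GGTCA and the GC box GGGCGG on either strand, so that the reverse complements TGACC and CCGCCC count too.
Grik2: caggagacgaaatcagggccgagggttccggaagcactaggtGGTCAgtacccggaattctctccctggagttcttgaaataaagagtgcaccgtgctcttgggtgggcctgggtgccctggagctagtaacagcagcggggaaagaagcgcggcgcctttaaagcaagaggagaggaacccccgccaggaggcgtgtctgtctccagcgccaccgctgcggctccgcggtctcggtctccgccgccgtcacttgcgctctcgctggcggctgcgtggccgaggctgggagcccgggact
Grik3: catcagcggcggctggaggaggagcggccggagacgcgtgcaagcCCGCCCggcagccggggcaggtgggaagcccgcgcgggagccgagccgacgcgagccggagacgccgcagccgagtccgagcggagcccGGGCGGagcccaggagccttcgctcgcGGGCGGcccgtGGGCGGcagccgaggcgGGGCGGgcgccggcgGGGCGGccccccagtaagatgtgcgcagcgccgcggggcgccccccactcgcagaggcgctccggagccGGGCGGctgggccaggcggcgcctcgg
Grm3: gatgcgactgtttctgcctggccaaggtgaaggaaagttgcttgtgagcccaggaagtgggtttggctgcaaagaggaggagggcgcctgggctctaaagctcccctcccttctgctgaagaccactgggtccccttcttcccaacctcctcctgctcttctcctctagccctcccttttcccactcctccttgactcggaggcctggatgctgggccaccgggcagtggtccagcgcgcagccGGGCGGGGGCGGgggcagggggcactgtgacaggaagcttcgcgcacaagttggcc

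In these windows *Grik2* held 1 GGTCA element and no GC box, *Grik3* held 7 GC boxes and 50 CpG dinucleotides, and *Grm3* held 2 adjoining GC boxes. The GC content was 64.7%, 82.0% and 63.7%. The whole estrogen response element, in which GGTCA and TGACC stand 3 bases apart, was in 0 of the 40 member promoters and in 0.07% of 32851 promoters of the table. The GGTCA element was in 12 of the 40 (40.5% of all promoters) and the GC box in 19 of the 40 (35.7% of all promoters). A match of letters is a description only, and a window of 300 bases without one leaves the rest of the gene unread.

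Genes taken as markers for excitatory neurons of forebrain areas other than the MeA had lower values in E2 libraries, as several members did. All 6, among them *Slc17a7*, *Neurod2* and *Tbr1*, were listed, and 6 of 6 had lower means with E2, 5 of them at an unadjusted p under 0.05 and 0 past the threshold. The marker not under 0.05 was *Tbr1*, with a difference of -0.05 (adjusted p = 0.915, limma). *Slc17a7*, the vesicular glutamate transporter of cortical and hippocampal neurons, had the highest level and a difference of -0.42 (adjusted p = 0.174). The paper names it, as Vglut1, among the transcripts expressed in its MeA *Kiss1* data. Which cells the marker transcripts came from was not tested. The mean log2 CPM of the list was 5.66, 5.35 and 5.18 in OVX and 4.75, 4.90 and 5.19 in E2 libraries, and the summed CPM was 880 to 1137 in OVX and 668 to 871 in E2. The highest E2 library was replicate 3 and the lowest OVX library was replicate 3, the same libraries in which the *Shank2* and *Grik3* groups came closest.

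With this mean added to the fit as a term, 0 members and 3 of all genes passed the threshold. At an unadjusted p under 0.05 there were 2 of 38 members, both higher with E2, and 549 of 13886 genes. Without the term these counts were 8 and 1188. The median SE of the members was 0.109 with the term and 0.076 without it. The share of the difference that was left ran from 91.7% for *Grik1* and 84.6% for *Grm3* through 79.3% for *Grm2*, 60.6% for *Grik2* and 57.5% for *Gria1* to 43.4% for *Shank2*, 29.9% for *Grik3*, 9.85% for *Shank3* and 4.01% for *Dlgap3*. In 6 libraries the term goes along with treatment, and their parts cannot be told apart. The striatal markers had means of 3.93, 4.31 and 3.46 in OVX and 3.51, 3.99 and 4.25 in E2 libraries, highest in OVX replicate 2 and E2 replicate 3, the 2 libraries in which the Dlgap and Shank genes lay above their group means. The endothelial and mural markers were also highest in these 2 libraries (5.308 and 5.001, against 4.998 in E2 replicate 1), as were the microglia markers (3.97 and 3.75, against 3.74 in E2 replicate 1). The part of these 3 marker lists in that pattern was not tested.

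**Figure D5:**
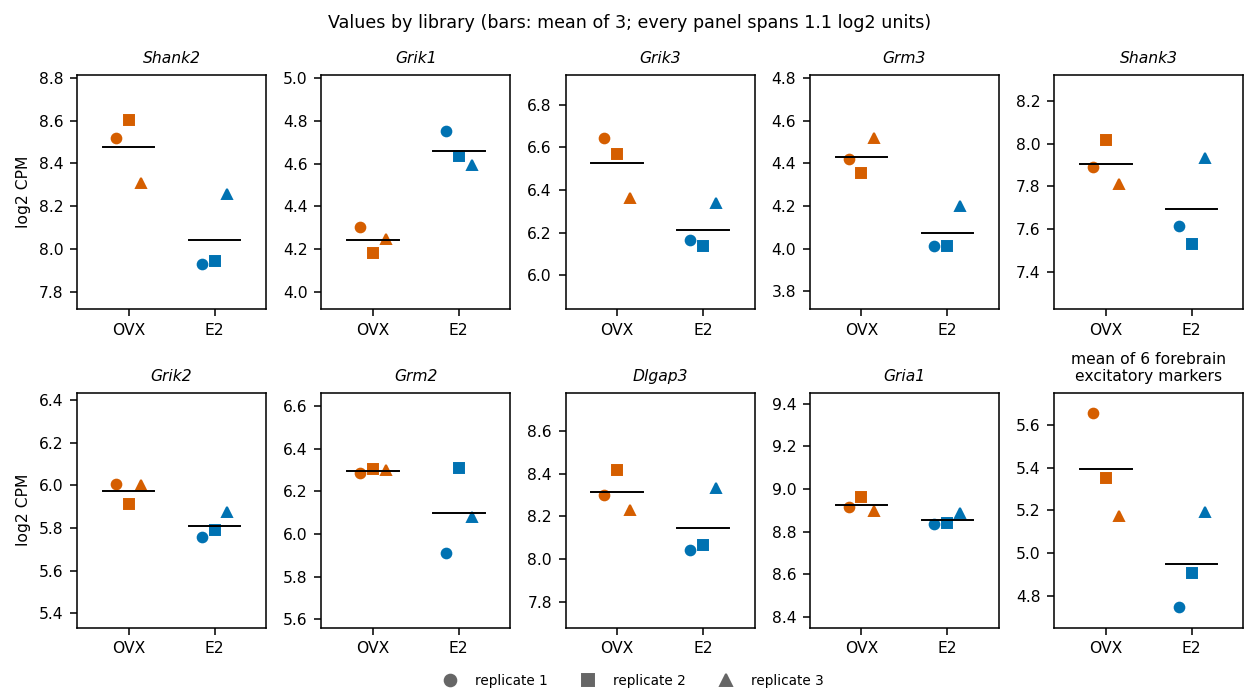
Log2 CPM in each library (orange, OVX; blue, E2; symbol, replicate number; bar, mean of 3) of the 9 members with an unadjusted p under 0.05 or without overlap, and the mean of the 6 forebrain excitatory markers at the lower right. *Grik1* is higher in all 3 E2 libraries, while *Shank2*, *Grik3* and the marker mean come together in replicate 3 of both groups.

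Other proteins that surround these receptors were followed in 3 further lists. Of the 12 genes for AMPA receptor auxiliary proteins, which govern the trafficking and gating of the channel, 0 passed the threshold and the median difference was -0.01 on the log2 CPM scale. *Cacng3*, a transmembrane AMPA receptor regulatory protein, had 6.87, 6.54 and 6.65 in OVX and 6.32, 6.35 and 6.48 in E2 libraries, a difference of -0.30 (SE 0.08, adjusted p = 0.254). *Cnih3*, a cornichon that exports AMPA receptors from the endoplasmic reticulum, had 7.06, 6.97 and 6.78 in OVX and 6.67, 6.73 and 6.78 in E2 libraries. Its difference was -0.21 (SE 0.07, adjusted p = 0.408). Neither *Cacng3* nor *Cnih3* overlapped between groups, although the nearest *Cnih3* libraries of both groups were at 6.78. With the forebrain excitatory marker mean as a term, 31.5% of the *Cacng3* and 14.8% of the *Cnih3* difference was left. *Cnih2*, another cornichon, was higher with E2 without overlap, with a difference of 0.12 (adjusted p = 0.600).

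Of the 14 kinases and phosphatases that act on glutamate receptors, 1 passed the threshold. *Ptpn5* encodes STEP, a tyrosine phosphatase that removes phosphate from NMDA receptors and leads to their loss from the surface. It had 7.82, 7.71 and 7.74 in OVX and 8.14, 8.02 and 8.13 in E2 libraries, and rose by 0.34 (SE 0.06, adjusted p = 0.0224, limma). Its call was lost without OVX replicate 2, OVX replicate 3, E2 replicate 1 or E2 replicate 3 (adjusted p from 0.0534 to 0.129), while its difference lay between 0.32 and 0.40 in every refit. *Prkca*, a protein kinase C, had 7.51, 7.46 and 7.49 in OVX and 7.67, 7.76 and 7.74 in E2 libraries, without overlap (0.23, SE 0.05, adjusted p = 0.125). Of the 14, 3 were lower with E2 at an unadjusted p under 0.05, among them *Camk2a* (-0.18) and *Src* (-0.13). The results of *Ptpn5* and *Camk2a* were known when the list was written.

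Of the 22 other postsynaptic density proteins, 0 passed the threshold, 17 had a difference below 0 (77.3%, against 48.9% of all genes) and the median difference was -0.10. The 5 with an unadjusted p under 0.05 (22.7%, against 8.56% of all genes) were all lower with E2. With the forebrain excitatory marker mean as a term, 0 of the 22 and 549 of all 13886 genes were under 0.05. *Lrrc7*, which encodes densin and binds CaMKII, had 6.53, 6.38 and 6.17 in OVX and 5.99, 6.07 and 6.06 in E2 libraries, a difference of -0.32 (SE 0.08, adjusted p = 0.212) without overlap, of which 38.0% was left with that term. The others included *Iqsec2* (-0.24), *Cnksr2* (-0.20) and *Kalrn* (-0.19). *Arc*, an activity-induced gene whose protein drives endocytosis of AMPA receptors, had 5.87, 6.18 and 5.86 in OVX and 5.44, 5.52 and 6.16 in E2 libraries. E2 replicate 3 again lay among the OVX libraries, and the difference was -0.26 (SE 0.15, adjusted p = 0.695). It was -0.13 without E2 replicate 1, -0.49 without E2 replicate 3 (adjusted p = 0.0647) and 0.07 with the marker term.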

How the data were processed

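The MeA IP libraries of 3 OVX and 3 E2-treated pools were analysed from the log2 CPM that the authors deposited. Per the labels and the study's methods, the authors checked reads with FastQC 0.11.8, trimmed them with Trimmomatic 0.38, aligned them to GRCm38 with STAR 2.6.0a, quantified genes with RSEM, kept protein-coding genes with enough counts, scaled libraries by TMM and applied voom. Libraries were unstranded and poly(A)-selected, so overlapping genes on opposite strands share reads, and reads were not deduplicated by molecular identifiers. The authors' table of comparisons, which holds their fold changes, moderated statistics, p-values and group means, was not used. Scaled library sizes were derived from the lowest log2 CPM of each library, which stands for no read plus the 0.5 added by voom.

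Members were taken by symbol, and the members and lists were chosen with earlier results of these data known. E2 minus OVX was fitted with limma 3.58.1 (R 4.3.3) on all 13886 genes, with a mean-variance trend, two-sided p-values and Benjamini-Hochberg adjustment over all genes (threshold 0.05). The procedure was tested on simulated data. Balances of 2 members were tested by exact permutation of the libraries. Full values are given for members with an unadjusted p under 0.05 or without overlap between groups, for the highest member of each family per kilobase and for the lowest 2 members. In the other lists they are given for genes past the threshold and for the 2 with the largest absolute difference in each list. Transcript lengths, GC content and positions came from GENCODE release 21, which holds 13881 of the genes. Replicate numbers did not pair libraries (correlations of deviations -0.02, -0.12 and -0.08). Protein sequences were not analysed here. Some genes of the other lists are counted but not reported here by name.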

Additional observations from a re-analysis of the deposited data

How the results depend on the processing

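The counts, and the differences of the 9 members and 6 other genes given in full, were recomputed with other normalizations, pseudocounts, filters and weights, a replicate block, the forebrain excitatory marker mean as a term, and each library left out. The balances were recomputed with quantile normalization, a pseudocount, the block and each library left out. The count of all genes past the threshold, 40, was 0 without trend and 3 with the marker term, and ran from 20 to 66 with 1 library left out. Members past it numbered 0 in every fit, except 1 (*Shank2*) without OVX replicate 3 or without E2 replicate 3, so that the range with 1 library left out was 0 to 1. Members at an unadjusted p under 0.05 numbered 5 without trend and 2 with the marker term, and from 5 to 11 with 1 library left out, the lowest without E2 replicate 1 and the highest without E2 replicate 3. Over all 13886 genes the count was 1188 in the main fit, 1017 without trend and 549 with the marker term. It was 838 without E2 replicate 1 and 1229 without E2 replicate 3. The kinase and phosphatase list had 0 genes past the threshold without trend and with the marker term, and 0 to 1 with 1 library left out. *Ptpn5* then had an adjusted p of 0.467 without trend and 0.312 with the marker term. *Arc* changed sign to 0.0654 with the marker term. Median centring gave 73.7% and quantile normalization 63.2% of members below 0, against 52.1% and 50.1% of all genes.

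The replicate numbers did not pair the libraries. With the number as a block, 35 genes passed the threshold, 0 of them members, and the kinase list had 0 genes past it (*Ptpn5* adjusted p = 0.0842). In that fit 6 of 38 members and 885 of 13886 genes had an unadjusted p under 0.05.

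Balances near 0 changed sign. With quantile normalization *Grin3a* minus *Grin1* was -0.0431, *Dlg4* minus *Dlg1* 0.0028 and *Homer1* minus *Homer3* 0.0115. With 1 library left out, *Grin2a* minus *Grin2b* ran from -0.00156 to 0.122, *Grin2a* minus *Grin1* from -0.0715 to 0.0427, *Grin3a* minus *Grin1* from -0.0623 to 0.0765, *Grm5* minus *Grm7* from -0.0959 to 0.0609, *Dlg4* minus *Dlg1* from -0.0397 to 0.0278 and *Homer1* minus *Homer3* from -0.348 to 0.174, whereas *Grik1* minus *Grik2* stayed between 0.51 and 0.65. The causes of these changes were not tested. With 3 pools per group, a member's difference under about 0.16 on the log2 scale lay within the median 95% interval.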
